A study of Pan troglodytes and Macaca mulatta with 12 samples.

Results

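The genes described here are those of the mitochondrial respiratory chain and ATP synthase that are encoded in the nucleus, compared between chimpanzee and rhesus macaque lymphoblastoid cell lines. The members were taken from a list of 55 gene identifiers covering complexes I to V, named by gene family, with no measured value in the rule. Of these, 36 had at least 1 count in the files, out of 16903 genes listed in all, and 33 had enough counts to be tested. The other 19 were not analysed here. RNA was sequenced from lines of 6 chimpanzees, 3 of them female, and 6 rhesus macaques, 2 of them female, with 1 line and 1 library per individual. A lymphoblastoid line is a culture of B lymphocytes that has been immortalised and grows without limit. Each line is 1 culture, so differences between individuals and between cultures cannot be told apart. All lines were grown in the same serum-supplemented RPMI-1640 medium with L-glutamine and antibiotics, and the labels name no treatment. Lines from humans, part of the same study design, were not analysed here.

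In the respiratory chain, complex I takes electrons from NADH and complex II takes them from succinate, a step that complex II shares with the citric acid cycle. Both pass them to ubiquinone. Complex III hands them on to cytochrome c, and complex IV gives them to oxygen. Complexes I, III and IV pump protons across the inner mitochondrial membrane, and complex V, the ATP synthase, uses the return of those protons to make ATP. All but complex II are built from subunits of both the nuclear and the mitochondrial genome. Exons of 23 chromosomes are listed, the autosomes and X, so the mitochondrially encoded subunits were not analysed here.

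The files give identifiers without gene names, and 0 of the 55 identifiers matched the name tables at hand, so no subunit is named. The list runs through the complexes in order but does not mark where one ends. The borders were placed by hand from general knowledge of the identifiers, with 28 members in complex I, 4 in complex II, 6 in complex III, 9 in complex IV and 8 in complex V. Of these, 22, 1, 3, 5 and 5 had counts. Each gene is called by its complex and its chromosome in the exon set that both species share, with a letter, in order of position, where a complex has several genes on 1 chromosome. Positions are printed as the files give them, in a genome build not given in the sources used here, and are not those of either species' own chromosomes. The sources used here gave no sequence for these genes. Markers of B cells and of other cell types need gene names, so the label of the cells was not checked.

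Library totals ran from 1434241 to 4751954 counts in the chimpanzee libraries and from 1801830 to 4600137 in rhesus macaque, and the listed members took 5082 to 27422 of them. Levels are given in CPM, the counts of a gene relative to its library total, with totals adjusted by TMM, a method that sets most genes level between libraries. Of the 12 libraries 2 stood apart. Chimpanzee replicate 1 was the smallest, and its chromosome 19 genes deviated from the mean of the chimpanzee lines by a median of -0.66 (log2 scale). In rhesus macaque replicate 3, 29 of the 33 tested members lay above the rhesus macaque mean, with a median deviation of 0.48 for the members and 0.00198 for all tested genes. The chromosome 19 genes also split the rhesus macaque lines. Their median deviation was -0.24 and -0.25 in replicates 5 and 6, and 0.08 to 0.19 in replicates 1 to 4.

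Most of the called respiratory chain genes were lower in chimpanzee. Of the 33 tested members, 15 were lower and 4 were higher in chimpanzee (quasi-likelihood test of edgeR, with p adjusted over all 9440 genes tested and a threshold of 0.05). Over all tested genes 23.5% were lower and 24.7% were higher, against 45.5% and 12.1% of the tested members. In either direction 57.6% of the members were called, against 48.2% of all genes. The median log2 fold change, chimpanzee minus rhesus macaque, was -0.53 for the tested members and 0.04 for all tested genes, and 24 of 33 members (72.7%) lay below 0, against 48.4% of all genes. The median absolute log2 fold change was 1.17 for called members and 1.33 for all called genes. In bulk RNA, fewer cells of a type and less RNA per cell cannot be told apart. Without both libraries that stood apart, 12 members were lower and 4 higher. In the fits without 1 library each, 13 to 16 members were lower. The shares of all genes called in these fits were not computed.

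In 10 members every rhesus macaque library lay above every chimpanzee library, 30.3% of those tested against 13.8% of all genes. In 1 member (3.03%, against 13.3% of all genes) every chimpanzee library lay above every rhesus macaque library. In 6 members, 2 higher and 4 lower in chimpanzee, the difference exceeded 2-fold by a test of that size (edgeR glmTreat at the same threshold). That is 18.2% of the members, close to the 17.2% of all genes, of which 8.74% were higher and 8.51% lower. The filter on low counts asked for about 4 CPM (3.97) in 6 libraries, and 3 members met it in all libraries of 1 species only. Genes 10 of complex I and 6 of complex IV met it in all chimpanzee libraries but in 1 and 3 rhesus macaque libraries, and gene 18 of complex V met it in all rhesus macaque and 5 chimpanzee libraries.

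**Figure D1:**
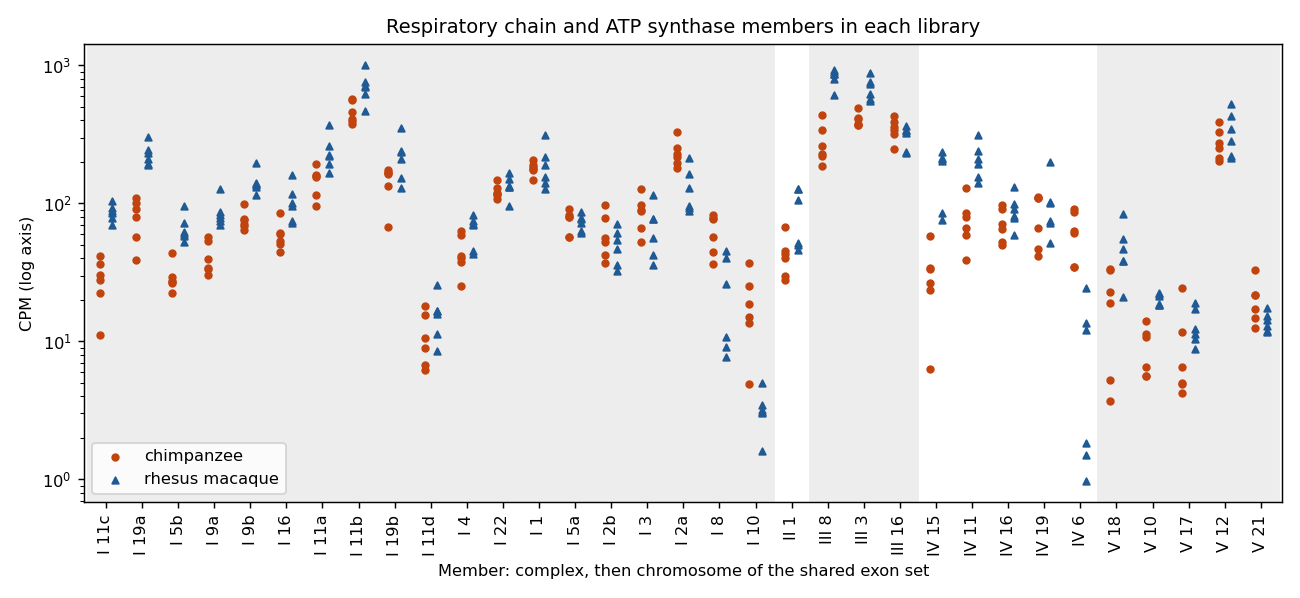
CPM of the 33 tested members in each library, on a log axis. Each circle is 1 chimpanzee library and each triangle 1 rhesus macaque library, members are grouped by complex (shaded bands) and ordered within it by fold change. Triangles lie above all circles for 10 members, and circles above all triangles for gene 6 of complex IV alone.

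Complex I had 19 tested genes, of which 8 were lower, 3 were higher and 8 did not pass. Their log2 fold changes ran from -1.60 to 2.58 with a median of -0.53. Among the genes lower in chimpanzee, gene 19a (chromosome 19 from 1338810 to 1344329, 5 listed exons) had 39.1, 85.8 and 110.2 CPM in chimpanzee lines and 191, 222 and 304 CPM in rhesus macaque lines, given as the lowest, the median and the highest of 6 libraries. No chimpanzee library reached the lowest rhesus macaque library. The means were 79.7 ± 27.0 and 229 ± 42.1 CPM (SD, n = 6 each), which gives a log2 fold change of -1.52 ± 0.24 (SE, edgeR adjusted p = 0.000160). Genes of chromosome 19 stood low in chimpanzee in general, with a median of -0.58 over 638 tested genes, and the part of this in the gene's difference was not tested. Its call beyond 2-fold (glmTreat adjusted p = 0.0353) was lost when chimpanzee replicate 1, 3 or 4 or replicate 2 or 3 of rhesus macaque was left out (edgeR adjusted p from 0.0534 to 0.0766). It was also lost with sex as a term (0.0544), with libraries thinned to the smallest (0.0916) and without both libraries that stood apart (0.115).

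Gene 11c of complex I (chromosome 11 from 67556329 to 67557055, 2 listed exons) had 11.2, 29.1 and 41.6 CPM in chimpanzee lines and 70.1, 86.9 and 103 CPM in rhesus macaque. Here too the groups did not overlap. The log2 fold change was -1.60 ± 0.26 (SE, edgeR adjusted p = 0.000208), and the test beyond 2-fold gave an adjusted p of 0.0272. That last call was lost without chimpanzee replicate 4 (edgeR glmTreat adjusted p = 0.0548) and without the stronger exon (0.157). Both exons were lower in chimpanzee, with 141 against 331 counts and 383 against 1117 counts over the 6 libraries.

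Of the other 6 complex I genes that were lower, 3 separated the species fully. Gene 5b (chromosome 5 from 140007025 to 140007131, 1 exon of 107 bases) stood at 29.4 ± 7.46 CPM in chimpanzee lines and 66.6 ± 15.6 CPM in rhesus macaque. Gene 9a (chromosome 9 from 32560958 to 32563182) had 41.2 ± 11.2 and 86.2 ± 20.4 CPM, and gene 9b (chromosome 9 from 123946161 to 123954508) had 75.7 ± 12.1 and 142 ± 27.5 CPM. These differences, with log2 fold changes of -1.17, -1.06 and -0.91, were called but did not pass the test beyond 2-fold (edgeR glmTreat adjusted p = 0.301, 0.548 and 0.971). In genes 16, 11a and 11b the highest chimpanzee library overlapped the lowest rhesus macaque library, and the log2 fold changes were -0.80, -0.70 and -0.63. Gene 11b (chromosome 11 from 67130983 to 67136581, 9 listed exons) had the most counts of the complex, at 461 ± 85.6 CPM in chimpanzee lines and 712 ± 178 CPM in rhesus macaque lines.

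In the other direction, gene 10 of complex I, ENSG00000166136 (chromosome 10 from 102273836 to 102279626, 2 listed exons), had 4.88, 16.7 and 36.7 CPM in chimpanzee lines and 1.62, 3.11 and 4.99 CPM in rhesus macaque. The lowest chimpanzee library, replicate 1, lay just under the highest rhesus macaque library, and the other 5 were above all rhesus macaque libraries. The log2 fold change was 2.58 ± 0.43 (SE, edgeR adjusted p = 0.000256, beyond 2-fold 0.00275). It rests on 379 counts in the chimpanzee libraries and 53 in rhesus macaque. The gene met the filter on low counts in all chimpanzee libraries but in only 1 rhesus macaque library. It dropped out of the test in the thinned libraries and without its strongest exon. Gene 8 of complex I (chromosome 8 from 125631183 to 125631407, 1 exon) stood at 62.5 ± 19.5 CPM in chimpanzee lines and 23.2 ± 16.6 CPM in rhesus macaque, with a log2 fold change of 1.44 ± 0.44 (SE, edgeR adjusted p = 0.0145). Its rhesus macaque libraries spread from 7.66 to 44.9 CPM and the highest overlapped the lowest chimpanzee library at 36.3 CPM. Gene 2a (chromosome 2 from 206696080 to 206732432) had 18 listed exons, more than any other member, and 233 ± 52.4 CPM in chimpanzee lines against 130.5 ± 50.3 CPM in rhesus macaque. Its log2 fold change was 0.83 ± 0.24 (SE, edgeR adjusted p = 0.0120), with groups that overlapped.

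The 8 complex I genes that did not pass had log2 fold changes from -0.59 to 0.36. Gene 19b (chromosome 19 from 14538577 to 14543886) had the highest level of the complex per base in chimpanzee, with 409.7 ± 116 CPM per kb of listed exon. In rhesus macaque it had 619 ± 224 CPM per kb, beside 623 ± 146 for gene 5b and 614 ± 81.9 for gene 11c. These ranges of mean and SD overlap, and the order was not tested. In CPM gene 19b ran from 67.0 to 176 with a median of 164 in chimpanzee, and from 128 to 354 with a median of 223 in rhesus macaque. Its log2 fold change of -0.59 (standard error 0.27, edgeR adjusted p = 0.0865) was close to the chromosome 19 median of -0.58. It ranged from -0.85 to -0.26 over the alternatives, and was called without the strongest exon (edgeR adjusted p = 0.0252) and without rhesus macaque replicate 6 (0.0383). Genes 5a, 1 and 22 were the closest to level, with log2 fold changes of 0.03, -0.08 and -0.14 and standard errors of 0.18, 0.21 and 0.16. The 3 complex I genes with too few counts for a test, on chromosomes 7, 12 and 18, had 9, 38 and 6 counts in the chimpanzee libraries and 15, 14 and 4 in rhesus macaque.

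**Figure D2:**
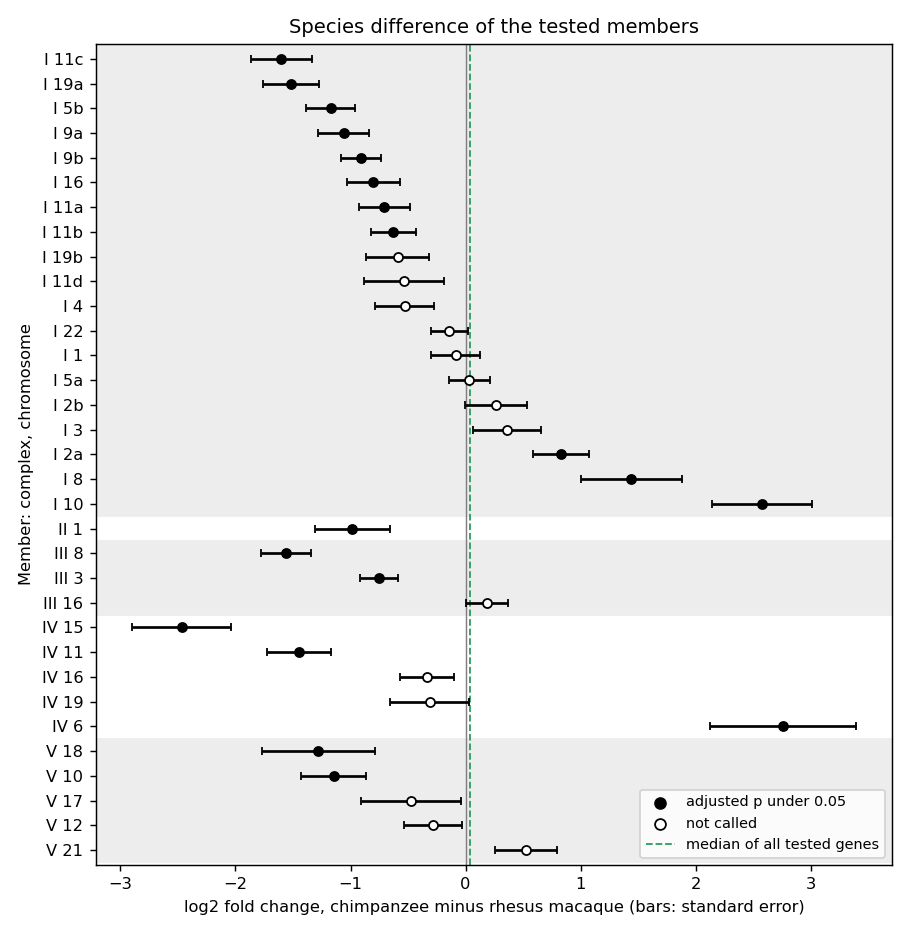
Log2 fold change, chimpanzee minus rhesus macaque, of the 33 tested members, with bars of 1 standard error. Filled points passed the edgeR quasi-likelihood test (adjusted p under 0.05) and open points did not, and the dashed line is the median of all 9440 tested genes at 0.04. There are 15 filled points below 0 and 4 above it. The lowest point is gene 15 of complex IV, and genes 6 of complex IV and 10 of complex I lie highest, within their standard errors of each other.

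Complex II had counts for 1 of its 4 members (chromosome 1 from 17223055 to 17253252, 3 listed exons). It had 27.9, 41.4 and 67.9 CPM in chimpanzee lines and 45.6, 78.2 and 127 CPM in rhesus macaque. The rhesus macaque libraries fell into separate levels, with 105 to 127 CPM in replicates 1 to 3 and 45.6 to 51.3 CPM in replicates 4 to 6, the latter within the chimpanzee range. Replicates 1 to 3 were also the smaller libraries, with at most 2122502 counts against at least 3352686, and the part of depth in this was not tested. The gene was called lower in chimpanzee with a log2 fold change of -0.99 ± 0.32 (SE, edgeR adjusted p = 0.0215). The call was lost without rhesus macaque replicate 1 or 3 and with sex as a term (edgeR adjusted p = 0.0510, 0.0516 and 0.0515), and without both libraries that stood apart it was 0.0947.

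In complex III, 2 of the 3 genes with counts were lower in chimpanzee and 1 did not pass. Gene 8 of complex III, ENSG00000179091 (chromosome 8 from 145221948 to 145224025, 6 listed exons), had 187, 245 and 436 CPM in chimpanzee lines and 611, 859.9 and 924 CPM in rhesus macaque, so the species did not overlap. Its means were 279 ± 93.1 and 825 ± 113 CPM (SD, n = 6 each), which gives a log2 fold change of -1.56 ± 0.22 (SE). It had the smallest adjusted p of the tested members (edgeR adjusted p = 5.2e-05, beyond 2-fold 0.0155), and its call held under all 22 alternatives tried, with log2 fold changes from -1.74 to -1.34. Gene 3 of complex III (chromosome 3 from 48612072 to 48622102, 12 listed exons) had 367 to 492 CPM in chimpanzee lines and 548 to 876 CPM in rhesus macaque lines, again without overlap, and a log2 fold change of -0.75 ± 0.16 (SE, edgeR adjusted p = 0.00171). Gene 16 of complex III (chromosome 16 from 21876057 to 21899522, 10 listed exons) stood at 348 ± 63.2 CPM in chimpanzee lines and 305 ± 56.8 CPM in rhesus macaque, a log2 fold change of 0.19 ± 0.18 (SE, edgeR adjusted p = 0.415). Whether its difference departs from those of the other 2 genes was not tested.

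Of the 5 counted genes of complex IV, 2 were lower and 1 was higher in chimpanzee, and 2 did not pass. Gene 15 of complex IV, ENSG00000178741 (chromosome 15 from 73017309 to 73017438, a single exon of 130 bases), had 6.28, 30.1 and 58.1 CPM in chimpanzee lines and 75.6, 208 and 234 CPM in rhesus macaque. Every rhesus macaque library was above every chimpanzee library, although lines of both species spread widely. Rhesus macaque replicates 1 to 4 had 204 to 234 CPM, and replicates 5 and 6 had 75.6 and 85.7 CPM. The chromosome 19 genes split the rhesus macaque lines in the same way, and a link between the splits was not tested. The log2 fold change was -2.47 ± 0.43 (SE, edgeR adjusted p = 0.000367, beyond 2-fold 0.00404). Gene 11 of complex IV (chromosome 11 from 63498655 to 63498842, a single exon of 188 bases) was also lower, at 76.3 ± 30.6 CPM against 209 ± 63.4 CPM, with no overlap and a log2 fold change of -1.45 ± 0.28 (SE, edgeR adjusted p = 0.000704, beyond 2-fold 0.0902).

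Gene 6 of complex IV, ENSG00000112695 (chromosome 6 from 76004111 to 76016759, 3 listed exons), was the only member whose chimpanzee libraries all lay above the rhesus macaque libraries. It had 34.3, 62.1 and 91.3 CPM in chimpanzee lines and 0.970, 6.97 and 24.2 CPM in rhesus macaque. Rhesus macaque replicates 1, 3 and 4 lay between 0.970 and 1.83 CPM, under the filter on low counts, while replicates 2, 5 and 6 had 24.2, 13.5 and 12.1. The log2 fold change was 2.76 ± 0.64 (SE, edgeR adjusted p = 0.00283, beyond 2-fold 0.0181), and with males only it was 2.11 and no longer called (edgeR adjusted p = 0.0802). Without rhesus macaque replicate 3 it was 2.54, below the 2.72 of gene 10 of complex I in the same fit. Genes 16 and 19 of complex IV did not pass, with log2 fold changes of -0.34 and -0.31 and standard errors of 0.23 and 0.34.

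Of the 5 counted genes of complex V, 2 were lower in chimpanzee, 0 were higher and 3 did not pass. Gene 10 of complex V (chromosome 10 from 7870099 to 7878124, 2 listed exons) had 5.58, 8.67 and 13.9 CPM in chimpanzee lines and a narrow range of 18.3 to 22.4 CPM in rhesus macaque. The groups did not overlap, and the log2 fold change was -1.15 ± 0.28 (SE, edgeR adjusted p = 0.00380). Gene 18 of complex V (chromosome 18 from 41932136 to 41932249, a single exon of 114 bases) ran from 3.69 to 33.2 CPM in chimpanzee lines and from 21.0 to 84.1 CPM in rhesus macaque, with a log2 fold change of -1.28 ± 0.49 (SE, edgeR adjusted p = 0.0437). Gene 12 of complex V (chromosome 12 from 55319157 to 55319358, a single exon of 202 bases) had 204, 263 and 391 CPM in chimpanzee lines and 213, 314 and 528 CPM in rhesus macaque lines. These ranges overlapped, with rhesus macaque replicates 3 and 6 above every chimpanzee library at 528 and 429 CPM. The log2 fold change of -0.28 for gene 12 did not pass (standard error 0.25, edgeR adjusted p = 0.369). Genes 17 and 21 had log2 fold changes of -0.47 and 0.52 and did not pass. An exon of gene 21 overlaps an exon of another gene, and without strand the reads there cannot be assigned to 1 gene.

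Per kb of listed exon, gene 12 of complex V had the highest level of the members in both species, at 1372 ± 355 CPM per kb in chimpanzee against 1666 ± 612 in rhesus macaque (SD, n = 6 each). In rhesus macaque genes 15 and 11 of complex IV followed, with 1314 ± 544 and 1113 ± 337. Gene 8 of complex III came after them with 900.5 ± 124. Neighbours in this order have overlapping ranges of mean and SD, and the order was not tested. In chimpanzee gene 12 of complex V stood well apart. Next came gene 19b of complex I with 409.7 ± 116, gene 11 of complex IV with 406 ± 163, and gene 11b of complex I with 339.9 ± 63.1. Their ranges of mean and SD overlap, and their order was not tested. The lowest tested level was that of gene 21 of complex V in chimpanzee, at 19.7 ± 7.11 CPM per kb, and gene 6 of complex IV in rhesus macaque, at 12.2 ± 12.6. The length counts each exon with at least 1 count in any library, so genes with exons that were hardly read come out too low.

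**Figure D3:**
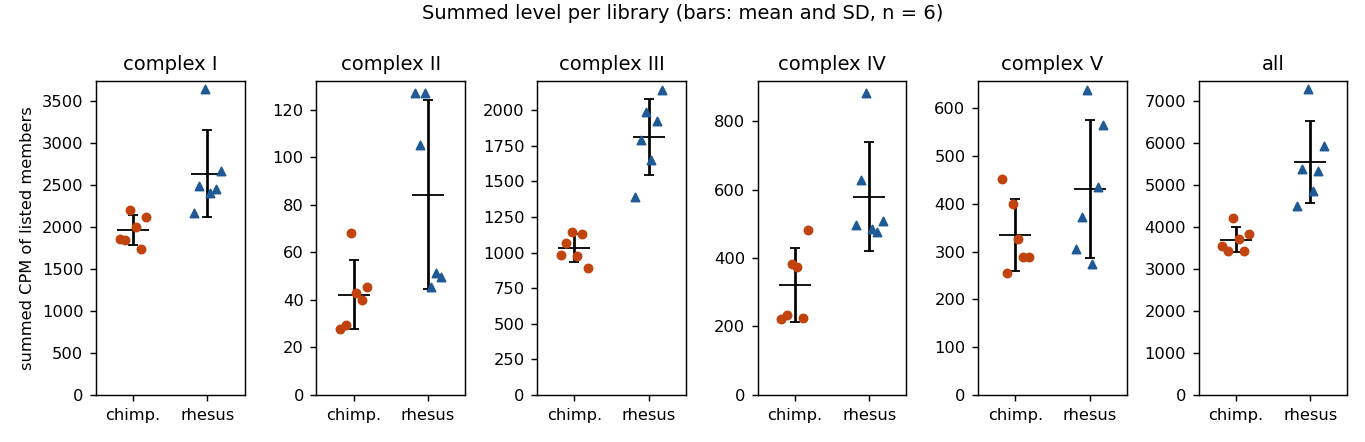
Summed CPM of the listed members of each complex, and of all 36 listed members, in each library. Circles are chimpanzee and triangles rhesus macaque libraries, with bars for the mean and SD of 6 libraries, and each panel has its own axis from 0. The species do not overlap for complex III and for all members together, and rhesus macaque replicate 3 is the highest triangle for all members, at 7281 CPM.

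The summed level of the 36 listed members ran from 3429 to 4206 CPM in chimpanzee lines and from 4494 to 7281 CPM in rhesus macaque lines, or from 0.343% to 0.421% and from 0.449% to 0.728% of the scaled counts. No chimpanzee library reached the lowest rhesus macaque library. The sum is given as a description without a test. The log2 ratio of the means was -0.59, and without chimpanzee replicate 1 and rhesus macaque replicate 3 it was -0.48. Complex III had 891.6 to 1145 CPM in chimpanzee lines and 1394 to 2143 in rhesus macaque, with a log2 ratio of -0.81. The sums of the other complexes overlapped between the species. For complex I the ranges were 1742 to 2211 and 2173 to 3648 CPM, so that the highest chimpanzee library barely passed the lowest rhesus macaque library, and the log2 ratio was -0.43. For complex IV they were 223 to 483 and 476 to 884 CPM, with a log2 ratio of -0.85. For complex V they were 256 to 453 and 273 to 638 CPM, with a log2 ratio of -0.36 that became -0.71 without gene 12, which holds most counts of that complex. Without rhesus macaque replicate 3 the log2 ratio of complex V was -0.22.

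Within the module, complex I took 53.1% ± 1.56 of the members' scaled counts in the chimpanzee libraries and 47.5% ± 2.10 in rhesus macaque (SD, n = 6 each). Complex III took 28.1% ± 3.50 and 32.9% ± 3.37. The shares of complexes IV and V were 8.58% ± 2.49 and 9.07% ± 1.97 in chimpanzee and 10.4% ± 1.47 and 7.62% ± 1.44 in rhesus macaque. These shares follow CPM, not length, and move with the genes that hold the most counts. The counted members are also only part of each complex.

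The use of single exons was compared next, to see whether a gene's reads were spread over its exons in the same way in both species. Of 24 members with at least 2 exons of 10 counts or more, 2 (8.33%) held an exon whose share differed (edgeR diffSpliceDGE, Simes adjusted p under 0.05), against 4.27% of all genes tested. In gene 10 of complex I the 2 exons went opposite ways. Exon 1 (from 102273836 to 102273886, 51 bases) had 7 counts in the chimpanzee libraries and 28 in rhesus macaque, while exon 2 (from 102279514 to 102279626, 113 bases) had 372 and 25. Exon 1 therefore held 1.52% ± 2.33 of the gene's counts in the chimpanzee libraries and 52.4% ± 25.1 in rhesus macaque (SD, n = 6 each, edgeR gene adjusted p = 0.000591). The chimpanzee libraries ran from 0% to 5.97% and the rhesus macaque libraries from 20% to 80%, with no overlap. The rhesus macaque shares rest on few reads, and only 1 of these libraries met the filter on low counts. By library, rhesus macaque replicates 1 to 6 had 4, 5, 3, 1, 5 and 10 counts in exon 1. In exon 2 they had 1, 2, 7, 4, 7 and 4. The higher level of this gene in chimpanzee thus rests on exon 2, at 18.6 ± 10.6 CPM against 1.52 ± 1.06 CPM.

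In gene 4 of complex I (chromosome 4 from 140430521 to 140443155, 6 listed exons) the level was not called, at 44.5 ± 14.2 CPM in chimpanzee lines and 64.4 ± 16.2 CPM in rhesus macaque (edgeR adjusted p = 0.0964). Exon 5 (from 140441206 to 140441448) held 3.15% ± 2.49 of its counts in the chimpanzee libraries and 0.0794% ± 0.194 in rhesus macaque (edgeR gene adjusted p = 0.00620). It had 27 counts against 1, and 5 of 6 chimpanzee libraries but only 1 rhesus macaque library had any. The call was lost with an exon minimum of 30 counts (edgeR adjusted p = 0.121), where this exon, with 28 counts in all, is no longer tested. Exon 3 (from 140436336 to 140436564) carried most of the gene's rhesus macaque counts, 687 of 1019, and 323 of 725 in chimpanzee. Its share was 72.9% to 84.1% in rhesus macaque replicates 1 to 4. In replicates 5 and 6 it was 44.2% and 43.3%, within the chimpanzee range of 20.7% to 58.6%. The share of exon 3 did not pass (edgeR diffSpliceDGE exon adjusted p = 0.562). Exon 1 had 160 counts in the chimpanzee libraries and 120 in rhesus macaque. Without the strongest exon the log2 fold change of the gene turned from -0.53 to 0.37 and was not called (edgeR adjusted p = 0.294).

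**Figure D4:**
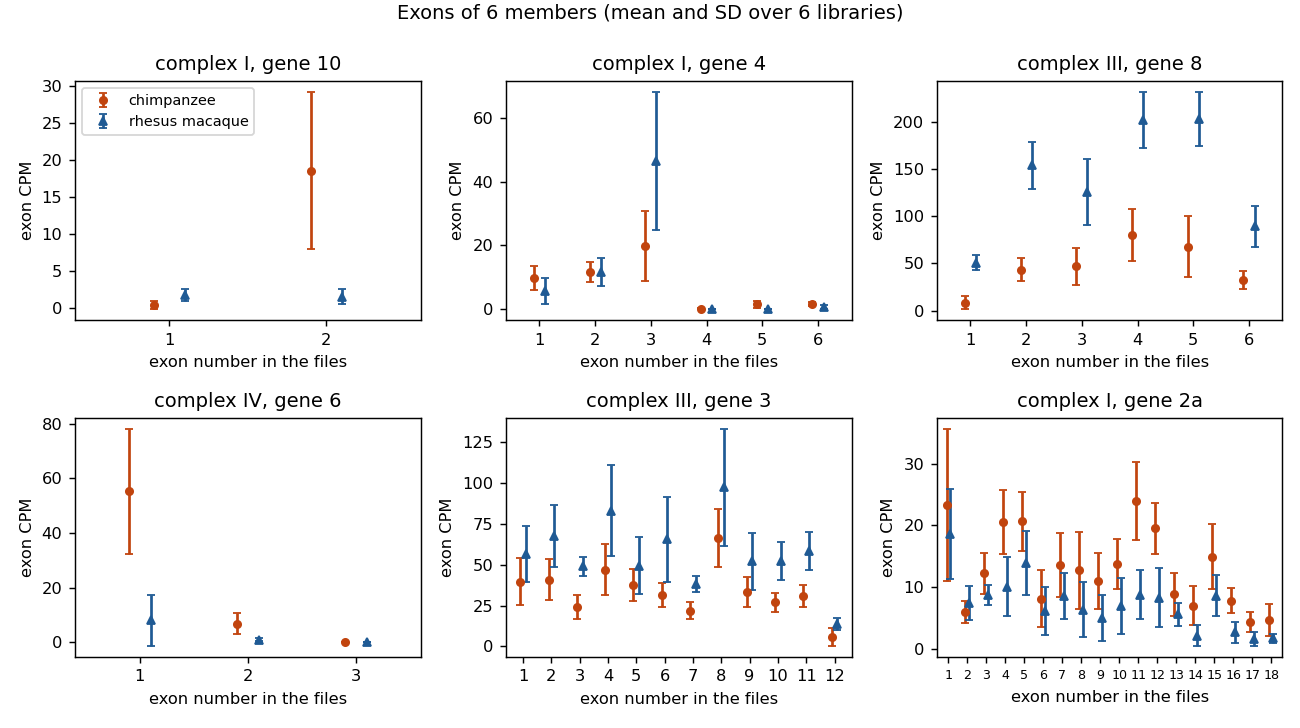
CPM of each listed exon of 6 members, as the mean and SD of 6 libraries per species (circles for chimpanzee, triangles for rhesus macaque), against the exon number in the files. In gene 8 of complex III all 6 exons and in gene 3 of complex III all 12 exons are lower in chimpanzee, while exons 1 and 2 of gene 10 of complex I go opposite ways.

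Of 14 called members with at least 2 exons of 30 counts or more, 10 had all these exons on the side of the gene. The same share over all called genes was not computed, so this count cannot be read as particular to the members. Exon and gene values come from the same reads, so this is no separate support for the calls. All 6 exons of gene 8 of complex III were lower in chimpanzee, from 8.45 ± 6.99 against 50.7 ± 7.87 CPM in exon 1 to 67.9 ± 32.0 against 203 ± 28.2 CPM in exon 5. In gene 2a of complex I, 17 of 18 exons were higher in chimpanzee, and exon 2 was the exception with 102 against 127 counts. In gene 11b of complex I, 8 of 9 exons were lower in chimpanzee and exon 2 was higher, at 28.7 ± 5.78 against 19.1 ± 4.65 CPM. That exon held 6.3% ± 1.05 of the gene's counts in the chimpanzee libraries and 2.73% ± 0.546 in rhesus macaque, which did not pass after adjustment over all exons (edgeR adjusted p = 0.0731). In gene 6 of complex IV, exon 1 had 970.0 counts in the chimpanzee libraries and 151 in rhesus macaque, exon 2 had 136 and 13, and exon 3 had 0 and 1. By library, rhesus macaque replicates 1 to 6 had 0, 46, 1, 0, 49 and 55 counts in exon 1. In exon 2 they had 3, 3, 2, 3, 1 and 1, so the split of the rhesus macaque lines in this gene lay in exon 1.

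Many members rest on few bases. The tested members had a median of 2 listed exons and 422 bases, against 7 exons and 1926.5 bases for all tested genes. Of the 8 tested members with 1 listed exon 5 were called, and of the 25 with more exons 14 were called. Over all genes 51.5% of those with 1 exon and 47.9% of those with more were called. Without the strongest exon of each gene 21 members could be tested, of which 10 were lower and 1 was higher in chimpanzee. The share of all genes called in that fit was not computed. Genes of this kind are known to have processed copies elsewhere in primate genomes, and reads shared with such copies would be counted or lost by rules not given in the sources used here. This was not tested.

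**Figure D5:**
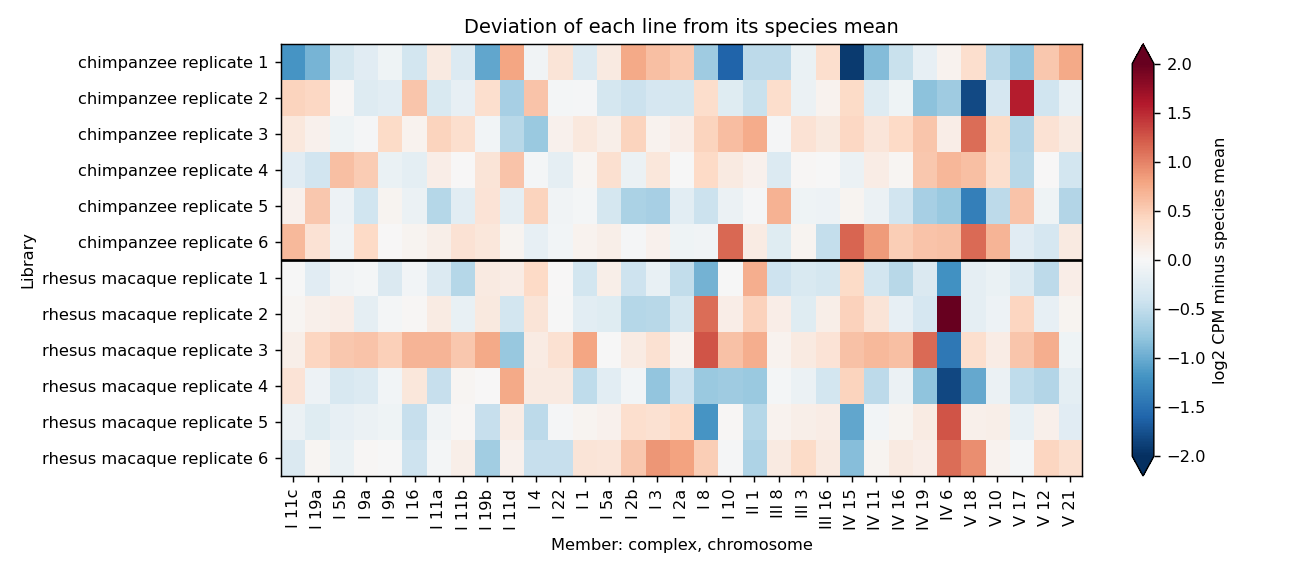
Log2 CPM of each tested member in each line minus the mean of its species, with red above and blue below that mean, on a scale from -2 to 2. Rhesus macaque replicate 3 is above its species mean in 29 of 33 members, and the strongest colours belong to genes 6 and 15 of complex IV and gene 18 of complex V.

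Lines of 1 species differed from each other by about as much in these genes as in others. The median SD of log2 CPM over the 6 lines was 0.46 in chimpanzee and 0.41 in rhesus macaque for the tested members, against 0.48 and 0.45 for all tested genes. Without rhesus macaque replicate 3 the rhesus macaque median for the members was 0.31, and without chimpanzee replicate 1 the chimpanzee median was 0.37. The steadiest member between rhesus macaques was gene 10 of complex V, with an SD of 0.13, against 0.53 between chimpanzees. That gene had 351 counts over the rhesus macaque libraries and only 167 in chimpanzee, and the part of counting noise in this contrast was not tested. The most variable between rhesus macaques was gene 6 of complex IV, with an SD of 1.67 against 0.61 in chimpanzee, and the next was gene 8 of complex I with 1.09 against 0.48. Between chimpanzees gene 18 of complex V led with an SD of 1.28, followed by gene 15 of complex IV with 1.03, gene 10 of complex I with 0.93 and gene 17 of complex V with 0.90. Gene 22 of complex I and gene 3 of complex III were steady in both species, with SDs of 0.15 and 0.16 in chimpanzee and 0.26 and 0.27 in rhesus macaque.

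Within chimpanzee, the summed level of the members was 3712 to 4206 CPM in the 3 females and 3429 to 3545 CPM in the 3 males, with no overlap. The libraries of the females were also larger, with 2543302 to 4751954 counts against 1434241 to 2488153. Replicates 2 and 5 (males, 2412430 and 2488153 counts) were close in depth to replicates 3 and 4 (females, 2576148 and 2543302). Their sums were 3438 and 3429 CPM in the males and 4206 and 3712 CPM in the females. The part of depth in the split was not tested. In rhesus macaque the 2 females, at 4855 and 5343 CPM, lay within the range of the 4 males, from 4494 to 7281 CPM. With sex as a term in the fit, 14 members were lower and 4 higher in chimpanzee.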

How the data were processed

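The authors deposited 1 file per library with exon counts that are whole numbers and not normalized. Each row carries a gene identifier with the exon's number and position. The aligner, counting tool and build were not given in the sources used here. The protocol in the labels names no step that marks strand and no molecular identifiers. Exons missing from a file were set to 0, and exon counts were summed per gene.

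Species were compared with edgeR 4.0.16 (quasi-likelihood test, robust estimation, limma 3.58.1, R 4.3.3), with TMM scaling and species as the only term, on 9440 genes kept by filterByExpr (count 10 in 6 libraries, total 15). Benjamini-Hochberg adjustment ran over all tested genes, and calls needed an adjusted p under 0.05. The standard error is the absolute log2 fold change over the root of the F statistic. Differences beyond 2-fold were tested with glmTreat. Log2 CPM used a prior count of 2. For exon usage, diffSpliceDGE was run on exons reaching 10 counts in total. The fits were run on simulated counts as a check. Simulated exon counts varied between libraries only by a factor per gene and counting noise. They therefore do not cover the spread of single exons between lines. Alternatives were other scalings, filters and exon sets, thinning, sex as a term, males only, DESeq2 1.42.0 and each library left out. Leaving out both libraries that stood apart was chosen after seeing the data.

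P-values set the species difference against the spread between lines, which holds differences between individuals, cultures and libraries together. No pair of libraries agreed within counting noise. The rule for the members uses no measured value, but members and lists were chosen with earlier results of these data known. Lists of assembly factors, citric acid cycle genes and cell type markers need gene names and were not run. Full values are given for members beyond 2-fold, for the smallest adjusted p per complex and direction, for the highest level per base in each complex and for exon usage calls. Other members given with values were chosen after these were seen. At most 2 identifiers per direction are printed.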

Additional observations from a re-analysis of the deposited data

Results flagged for a closer look

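The summed level of complex I in rhesus macaque replicate 3 was 3648 CPM, set apart from the other 5 rhesus macaque libraries, which ran from 2173 to 2667 CPM. The gap to the nearest library was 0.665 of the group's whole range, above Dixon's limit for 6 samples. It was 1 of 34 groups of 6 libraries examined, and no other passed this limit, which chance passes in about 1 in 20 groups. Without this library the log2 ratio of complex I between the species was -0.31, against -0.43 with it. The other complexes of the same library were high as well, at 1985 CPM for complex III, 884 CPM for complex IV and 638 CPM for complex V.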

How the results depend on the processing

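The counts of 4 higher and 15 lower members stayed within 1.5 times under both other scalings, DESeq2, no filter, sex as a term, thinning and each fit without 1 library. Exceptions were the fit without the strongest exon of each gene, with 1 higher member and 2 beyond 2-fold of 21 tested, and the fit of males only, with 1 higher member. Fewer members and fewer libraries enter these fits. Without 1 library each, 4 to 7 members were beyond 2-fold, and thinned to the smallest library 4 were. The number of members called for exon usage was 4 with the gene-level F test and 1 with an exon minimum of 30 counts, and it was 2 to 3 without 1 library each. For none of the alternatives was the share of all genes called computed, so these counts of members have no such share beside them. The median SD over rhesus macaque lines ran from 0.31 to 0.44 without 1 library each. The cause of the F test's difference was not tested. The log2 fold change of gene 4 of complex I turned to 0.37 without its strongest exon. The sums of all complexes kept their direction. The median of all genes moved by under 0.1 between scalings. No paired analysis was possible because the replicate numbers used here only follow the order of deposit, and the labels pair no chimpanzee with a rhesus macaque. The filter on low counts kept 3 listed members of under about 4 CPM in most libraries out of the test, and without it all 36 listed members were tested.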
